A study of Mus musculus with 9 samples.

Results

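The genes described here encode the 9 receptor chains through which a CD8 T cell detects IL-6, IL-27, IL-12, IL-18 and interferon-gamma. They are Il6ra, Il6st, Il27ra, Il12rb1, Il12rb2, Il18r1, Il18rap, Ifngr1 and Ifngr2, and they were taken by gene symbol from the 24060 genes of the table. The rule uses no measured value, although the set was drawn up with earlier results of these data known. All 9 symbols were found. RNA was sequenced from CD8 T cells of the lines R7-I, R7-II and R7-III, transnuclear mice on a BALB/c background made by nuclear transfer, each carrying in its own receptor loci the rearranged T cell receptor of a single CD8 T cell specific for the ROP7 protein of Toxoplasma gondii. Each line thus stands for 1 T cell receptor only. Spleen cells of every line received IL-2 at 10 ng/ml and ROP7 peptide at 10 µM overnight, after which live CD3+ CD8+ cells binding the H-2Ld-Rop7 tetramer were sorted, with 3 libraries per clone and 9 in all. No source used here gives the age of the mice. The study ranks the affinity of the receptors for the peptide as R7-I above R7-III above R7-II. That order comes from measurements on purified proteins. In the study's membrane-anchored assay R7-I and R7-III had similar affinities, and R7-II the lowest. Cells cultured without peptide were not analysed here, so all values are those of activated cells.

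Most of these chains work in pairs. Il6st encodes gp130, the signalling chain shared by the IL-6 family of cytokines, and Il6ra and Il27ra encode the chains that make it respond to IL-6 and to IL-27. Il12rb1 and Il12rb2 together form the IL-12 receptor, which signals through the factor Stat4 and favours interferon-gamma production and cytotoxic effector differentiation. Il18r1 binds IL-18 and Il18rap is its accessory chain, and this pair signals through the adaptor Myd88. Ifngr1 binds interferon-gamma and Ifngr2 is the second chain of that receptor, which acts through Jak1 and Jak2. Each of the receptors other than that of IL-18 hands its signal to Janus kinases and STAT factors.

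Activated R7-II stood apart from both other clones at nearly every chain, and the direction depended on the receptor. Both chains of the IL-12 receptor were lower in R7-II. Both chains of the interferon-gamma receptor and the 3 chains of the IL-6 and IL-27 receptors were higher. The IL-18 receptor chains were scarce, at no more than 1.51 TPM in any library. Expression is given in TPM, a transcript abundance corrected for gene length and scaled to the same total in each library, so that levels of different genes can be set side by side. Fold changes are differences of log2(TPM + 1) from limma, a linear model fitted to the 11330 genes with a maximum TPM above 1, and a gene passed at an adjusted p below 0.01. Of the 9 chains, 8 were tested, because Il18rap did not reach a TPM of 1 in any library. Against R7-I, 6 chains were higher and 2 lower in R7-II, where 40.6% of all genes tested were higher and 15.5% lower. Against R7-III the numbers were again 6 higher and 2 lower, beside 35.6% and 18% of all genes. Il18r1 exceeded 1 TPM in R7-II libraries alone, so it could be tested only by being higher there, and without it 5 chains were higher and 2 lower in each of these comparisons. Both comparisons use the same 3 R7-II libraries. In R7-III against R7-I, 1 chain was higher and 0 were lower by limma, beside 6.96% and 1.45% of all genes, and 2 chains had an unadjusted p below 0.05. The median log2 fold change of the 8 chains was 0.81, 0.63 and 0.04 in the same order, against 0.17, 0.12 and 0.04 over all genes tested. Without Il18r1 the medians of the chains were 0.80, 0.58 and 0.05.

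The scaling of the libraries moved every gene. Dividing each library by a median-of-ratios factor brought the median log2 fold change over all genes from 0.167 to -0.00412 for R7-II against R7-I and from 0.121 to -0.00379 for R7-II against R7-III. The share of passing genes that were higher in R7-II went from 72.4% to 46.1% and from 66.4% to 46.8%. For R7-III against R7-I, the share higher in R7-III went from 82.8% to 56.6%. The receptor chains had the same numbers of calls in the same directions under both scalings. Between 13738 and 14434 genes were above 0 in a library, and log2 values of libraries of the same clone correlated across genes with a Pearson r of 0.992 to 0.997. The study states a typical read number per sample, but TPM keeps no read number of a gene or library. The exact depth of each library is thus unknown here, and no counting error is given. The labels call the libraries biological replicates without naming animals, and p-values measure the spread between these samples.

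**Figure D1:**
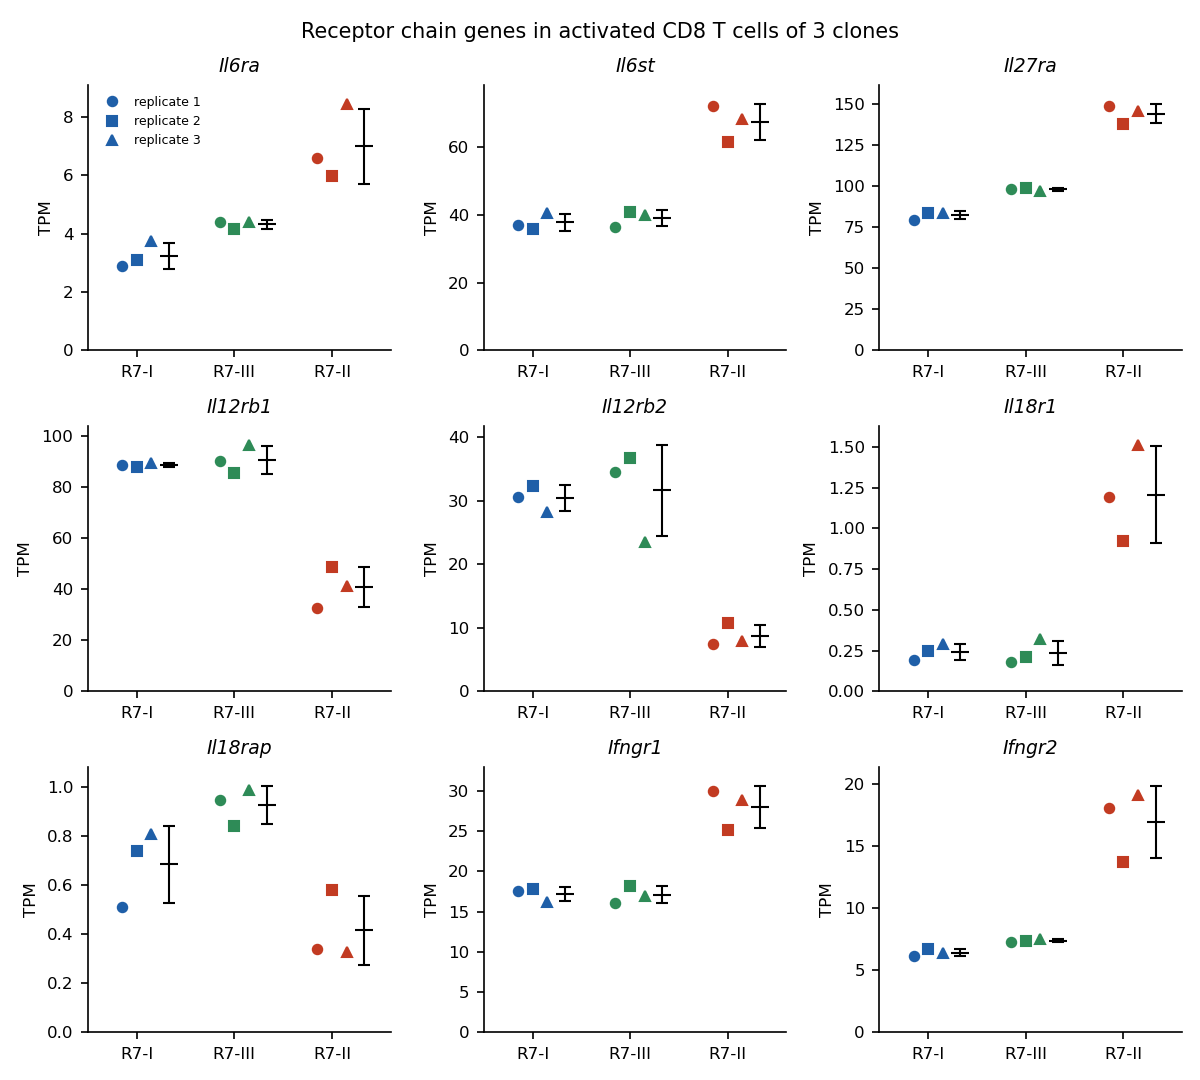
TPM of the 9 receptor chain genes in each library, with the clones ordered by affinity measured on purified proteins, from R7-I through R7-III to R7-II, on the x axis of each panel and a y axis that starts at 0. Circles, squares and triangles are replicates 1, 2 and 3, and the black bar is the mean ± SD of 3 libraries. The R7-II libraries lie above the other 6 for Il6ra, Il6st, Il27ra, Il18r1, Ifngr1 and Ifngr2 and below them for Il12rb1 and Il12rb2.

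The IL-12 receptor chain Il12rb2 had the largest log2 fold changes of the 8 tested chains with 1 added to each TPM. It recruits Stat4 with its cytoplasmic part and is encoded on chromosome 6 of mm10 between 67285986 and 67376293. With 0.1 added instead, the scarce Il18r1 came first in size, at 1.91 and 1.95 beside -1.80 and -1.84 for Il12rb2. The Il12rb2 level was 30.6, 32.4 and 28.3 TPM in the R7-I libraries, 34.6, 36.8 and 23.5 TPM in R7-III, and 7.46, 10.8 and 8.0 TPM in R7-II. The highest R7-II library was thus below the lowest of the other 6, an R7-III library that stood apart from its own replicates. The means were 30.4 ± 2.06 TPM in R7-I, 31.6 ± 7.10 TPM in R7-III and 8.74 ± 1.77 TPM in R7-II (SD, n = 3 each), so that R7-II was 3.48-fold below R7-I and 3.62-fold below R7-III. In limma its log2 fold change was -1.70 relative to R7-I (95% interval -2.06 to -1.35, adjusted p = 5.98e-06) and -1.73 relative to R7-III (-2.09 to -1.38, adjusted p = 5.58e-06). An exact two-sided permutation test setting the 3 R7-II libraries against all others gave p = 0.0238, and 3 against 6 cannot give less. Here and below, that test treats R7-I and R7-III as a single group. One end of Il12rb2 shares 3317 bases with Serbp1, an abundant gene at 446, 414 and 382 TPM in R7-I, R7-III and R7-II. The reads carried no strand information, so reads in the shared stretch could have been assigned to either gene.

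Il12rb1, the chain that IL-12 and IL-23 receptors have in common, lies on chromosome 8 from 70808360 to 70823542. It was at 88.8, 87.7 and 89.6 TPM in the R7-I libraries, at 90.2, 85.5 and 96.4 TPM in R7-III, and at 32.7, 48.6 and 41.3 TPM in R7-II. The R7-I and R7-III libraries overlapped, and all R7-II libraries were well below them. The means of 88.7 ± 0.913, 90.7 ± 5.45 and 40.8 ± 7.95 TPM (SD, n = 3) put R7-II 2.17-fold below R7-I and 2.22-fold below R7-III. The log2 fold changes were -1.12 (95% interval -1.36 to -0.88, adjusted p = 7.55e-06) and -1.15 (-1.39 to -0.91, adjusted p = 6.73e-06, limma). In R7-I, Il12rb1 was the most abundant of the 9 chains, while in R7-II it ranked 3 and in R7-III it ranked 2.

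The mean levels of the IL-12 receptor chains were lower in R7-II by different factors. Within a library, the ratio of Il12rb2 to Il12rb1 does not depend on how the library was scaled. It was 0.345, 0.369 and 0.316 in R7-I, 0.383, 0.430 and 0.244 in R7-III, and 0.228, 0.222 and 0.194 in R7-II. All 3 R7-II ratios were below the other 6, although the lowest R7-III ratio came close. On the log2 scale R7-II was lower by 0.68 than the mean of the other libraries, that is a difference of -0.68 (exact two-sided permutation test, p = 0.0238, adjusted p = 0.0397 over the 5 chain ratios computed). Il23r, the partner of Il12rb1 in the IL-23 receptor, did not exceed 0.08 TPM in any library.

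The sequence before the start of Il12rb2 is shown because its log2 fold changes were the largest with 1 added to each TPM. RefSeq promoter windows for GRCm38.p6, the assembly named mm10, were found for 7 of the 9 chains, and Il12rb1 and Il27ra have no entry. Each window was searched on both strands for the STAT dimer motif TTCNNNGAA, which 7.02% of 32851 promoter windows of 250 bases hold, and for the T-box motif TCACACC, which 3.33% hold. It was also searched for CACCC, a motif of Kruppel-like factors (KLF), which 52.0% hold. These motifs were chosen after the values were seen. A STAT match stood in Il12rb2 and, as a pair, in 1 of the 3 windows of Il18r1, and no window of these genes held the T-box letters. Ifngr2, the tested chain with the highest log2 fold changes in R7-II on the same scale, is shown for comparison and holds no match to these 2 motifs. The KLF letters, not marked below, stood 3 times in the window of Ifngr2, 2 times in Il6st and 1 time in Il12rb2. Il18r1 had 1 or 2 in each of its windows, and Il6ra, Ifngr1 and Il18rap had none. The stretches run 5′ to 3′, with STAT matches in capitals. That of Il12rb2 is chr6:67376294-67376438 on the minus strand, where the last 105 bases of the window were left out because another annotated start of the gene lies within it. That of Ifngr2 is chr16:91546809-91547058 on the plus strand. The Il18r1 pieces are chr1:40465777-40465805 and chr1:40465844-40465872, also on the plus strand, and they lie inside the annotated span of the gene, before a later one of its annotated starts. A match describes the letters only and does not show that a factor binds there.
Il12rb2: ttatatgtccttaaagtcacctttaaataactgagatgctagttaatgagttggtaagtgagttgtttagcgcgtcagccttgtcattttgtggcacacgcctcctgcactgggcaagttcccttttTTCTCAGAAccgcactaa
Ifngr2: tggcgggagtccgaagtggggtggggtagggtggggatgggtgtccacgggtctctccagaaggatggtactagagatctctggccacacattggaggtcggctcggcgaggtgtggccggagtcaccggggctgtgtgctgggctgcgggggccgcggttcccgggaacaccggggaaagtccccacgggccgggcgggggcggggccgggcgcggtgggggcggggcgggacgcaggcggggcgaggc
Il18r1 first piece: tcggggttagTTCTGGGAActgtggagct
Il18r1 second piece: agtacaggtcTTCCCAGAActgaaagctt

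**Figure D2:**
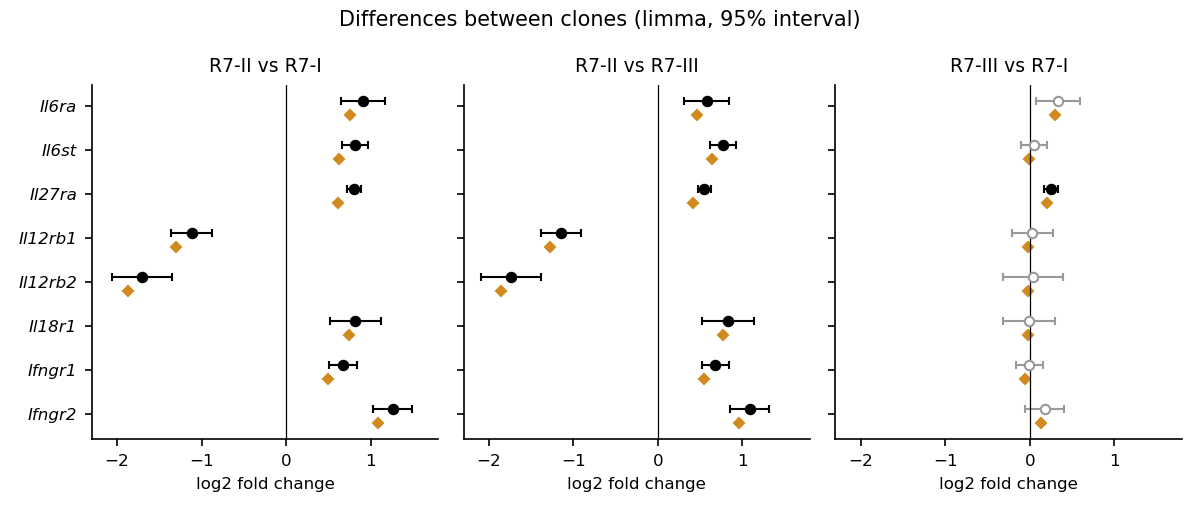
Log2 fold change of the 8 tested chains in R7-II against R7-I, R7-II against R7-III and R7-III against R7-I, on the log2(TPM + 1) scale. Circles with bars are the limma estimate and its 95% interval, filled where the adjusted p is below 0.01, and diamonds are the estimates after median-of-ratios scaling. In both R7-II comparisons only Il12rb1 and Il12rb2 lie left of 0, and between R7-III and R7-I only Il27ra is filled.

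The receptor for interferon-gamma had both chains higher in R7-II. Ifngr2, on chromosome 16 from 91547059 to 91564007, is the chain that brings Jak2 to the receptor. It stood at 6.13, 6.72 and 6.43 TPM in the R7-I libraries and at 7.29, 7.36 and 7.51 TPM in those of R7-III, against 18.1, 13.7 and 19.1 TPM in R7-II. No R7-II library overlapped the others, and R7-III lay above R7-I without overlap, by a small amount. R7-II averaged 17.0 ± 2.88 TPM (SD, n = 3), which was 2.64-fold the R7-I mean of 6.43 ± 0.295 TPM and 2.30-fold the R7-III mean of 7.39 ± 0.112 TPM. On the log2 scale R7-II exceeded R7-I by 1.26 (95% interval 1.03 to 1.49, adjusted p = 2.55e-06) and R7-III by 1.09 (0.85 to 1.32, adjusted p = 7.51e-06, limma). With 1 added to each TPM, this was the largest positive value among the 8 chains in both comparisons. With 0.1 added instead, Il18r1 was higher, at 1.91 and 1.95 beside 1.37 and 1.17 for Ifngr2.

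Ifngr1 encodes the ligand-binding chain and lies on chromosome 10 from 19591949 to 19610229. Its libraries were at 17.5, 17.8 and 16.2 TPM for R7-I, 16.1, 18.2 and 17.0 TPM in R7-III, and 30.0, 25.1 and 28.9 TPM in R7-II. R7-I and R7-III covered the same range, and every R7-II library was above both. R7-II was higher than R7-I by 0.67 (95% interval 0.51 to 0.83, adjusted p = 1.74e-05) and higher than R7-III by 0.68 on that scale (0.52 to 0.84, adjusted p = 1.74e-05, limma). Ifngr2 remained the scarcer chain in all clones, but its ratio to Ifngr1 differed between them. The ratio was 0.375 ± 0.0240 in R7-I, 0.434 ± 0.0252 in R7-III and 0.604 ± 0.0583 in R7-II (SD, n = 3), a log2 difference of 0.58 between R7-II and the other 6 libraries (exact two-sided permutation test, p = 0.0238, adjusted p = 0.0397 over 5 ratios). The R7-III ratios, from 0.405 to 0.453, also lay above those of R7-I, from 0.350 to 0.398 (exact two-sided permutation p = 0.1, the smallest possible with 3 against 3). The test against the other 6 libraries pools these clones although their ratios differed.

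Interferon-gamma itself went the other way. Ifng averaged 149 ± 14.4 TPM in R7-I, 122 ± 5.39 TPM in R7-III and 36.6 ± 11.2 TPM in R7-II (SD, n = 3), and R7-II differed from R7-I by -2.04 and from R7-III by -1.76 on the log2 scale (adjusted p = 2.85e-06 and 8.37e-06, limma). The clone with the higher receptor level thus had the lower ligand level. Among the cytokines that bind these receptors and the IL-18 inhibitor Il18bp, 4 of 9 genes were tested and Ifng alone passed. Il18bp had log2 fold changes of 0.20 and 0.46 (adjusted p = 0.227 and 0.0124). Il6, Il12b, Il23a, Il27 and Il18 stayed below 1 TPM in every library. Il12a reached 1.10 TPM and Ebi3 1.49 TPM at most.

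**Figure D3:**
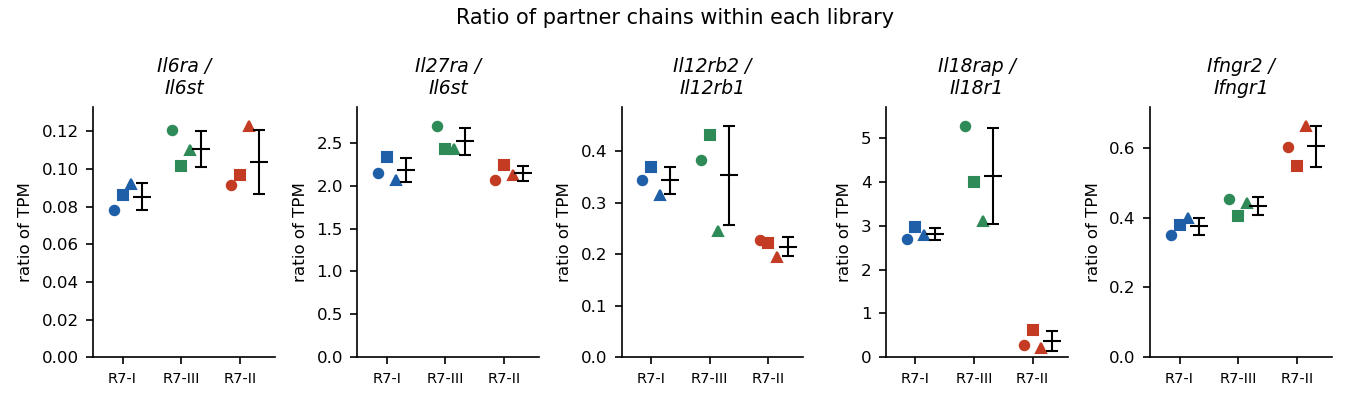
Ratio of the TPM of both chains of a receptor within each library, on a y axis from 0, with clones on the x axis, replicates 1 to 3 as circle, square and triangle, and the mean ± SD of 3 libraries in black. The R7-II ratios lie below the other 6 for Il12rb2 over Il12rb1 and Il18rap over Il18r1, above them for Ifngr2 over Ifngr1, and among them for the pairs with Il6st.

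The receptor of IL-6 and that of IL-27 share gp130, and all 3 genes were higher in R7-II. Il6st, on chromosome 13 from 112464070 to 112506860, was at 37.0, 35.8 and 40.7 TPM in the R7-I libraries, at 36.4, 40.8 and 40.0 TPM in R7-III, and at 72.1, 61.5 and 68.5 TPM in R7-II. Its R7-I and R7-III libraries overlapped and its R7-II libraries were all higher. R7-II exceeded R7-I by 0.82 on the log2 scale (95% interval 0.66 to 0.97, adjusted p = 2.85e-06) and R7-III by 0.77 (0.62 to 0.92, adjusted p = 4.31e-06, limma).

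Il27ra, the IL-27 chain, lies on chromosome 8 from 84030286 to 84042600 and was the most abundant chain in R7-II and R7-III. It measured 79.6, 83.4 and 83.8 TPM in the R7-I libraries, 98.3, 99.0 and 97.1 TPM in R7-III, and 149, 138 and 146 TPM in R7-II. The 3 clones did not overlap at any point, with R7-III between the others. R7-II exceeded R7-I by 0.80 on the log2 scale (95% interval 0.72 to 0.88, adjusted p = 6.34e-08) and R7-III by 0.55 (0.47 to 0.63, adjusted p = 5.59e-07, limma). R7-III exceeded R7-I by 0.25 (0.17 to 0.33, adjusted p = 0.00118, limma), and Il27ra was the only chain to pass in that comparison. It shares 386 bases with Palm3, which averaged 1.83 ± 0.232 TPM in R7-I, 2.15 ± 0.339 TPM in R7-III and 7.77 ± 1.82 TPM in R7-II (SD, n = 3), and unstranded reads in that stretch could have gone to either gene.

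Il6ra, the IL-6 binding chain, lies on chromosome 3 from 89869324 to 89913196 and was scarce beside its partner. The R7-I libraries had 2.89, 3.08 and 3.74 TPM, the R7-III libraries 4.40, 4.14 and 4.41 TPM, and the R7-II libraries 6.58, 5.97 and 8.43 TPM. The clones did not overlap and stood in the order R7-I, R7-III, R7-II. R7-II exceeded R7-I by 0.91 on the log2 scale (95% interval 0.65 to 1.17, adjusted p = 6.24e-05) and R7-III by 0.58 (0.31 to 0.84, adjusted p = 0.00149, limma). The step from R7-I to R7-III was 0.33 (0.07 to 0.60, adjusted p = 0.0781, limma) and did not pass. Under quantile normalization, the difference between R7-II and R7-III was 0.39 and no longer passed (adjusted p = 0.0111). The annotated gene Gm46811, not used here, shares 18140 bases with it.

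Ratios of these chains to gp130 did not set R7-II apart. Il6ra over Il6st was 0.0854 ± 0.00697 in R7-I, 0.111 ± 0.00960 in R7-III and 0.104 ± 0.0170 in R7-II (SD, n = 3), with R7-II overlapping both (exact two-sided permutation test, 3 libraries against 6, p = 0.595). Il27ra over Il6st was 2.18 ± 0.137, 2.52 ± 0.157 and 2.14 ± 0.0864 in the same order (p = 0.167 in the same exact test). A p of this size does not show that the ratios were equal. In both ratios all R7-III libraries were above all R7-I libraries, with the smallest exact p that 3 against 3 allow, 0.1.

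Other chains that pair with gp130 were little expressed. Il11ra1, the IL-11 receptor chain, was the only one of 4 to be tested, with a mean of 1.04 ± 0.183 TPM in R7-I, 1.31 ± 0.10 TPM in R7-III and 2.96 ± 0.260 TPM in R7-II (SD, n = 3). It was higher in R7-II by 0.96 and 0.78 on the log2 scale (adjusted p = 2.44e-05 and 1.16e-04, limma). Lifr was at 0.30 to 0.99 TPM, and Osmr and Cntfr were listed at 0 in all 9 libraries. Adam10 and Adam17, which encode proteases that release the IL-6 receptor from the cell surface, did not pass in any comparison.

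The IL-18 receptor was measured close to the floor of the table, which has 2 decimals. Il18r1 and Il18rap are neighbours on chromosome 1, from 40465552 to 40500854 and from 40515362 to 40551707, with 14507 bases between them. Il18r1 was listed at 0.19, 0.25 and 0.29 TPM in the R7-I libraries, 0.18, 0.21 and 0.32 TPM in R7-III, and 1.19, 0.92 and 1.51 TPM in R7-II. The R7-II mean of 1.21 ± 0.295 TPM was 4.96-fold that of R7-I and 5.10-fold that of R7-III. The log2 fold change, which adds 1 to each TPM and so understates the change of a scarce gene, came to 0.82 for R7-II over R7-I and to 0.83 for R7-II over R7-III (95% intervals 0.52 to 1.12 and 0.52 to 1.13, adjusted p = 3.47e-04 and 3.45e-04, limma). Il18r1 entered the test only through its R7-II values, so the difference was in part a condition of being tested.

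Il18rap showed the opposite order at the same low level. It was at 0.51, 0.74 and 0.81 TPM in the R7-I libraries, 0.95, 0.84 and 0.99 TPM in R7-III, and 0.34, 0.58 and 0.33 TPM in R7-II. The R7-II libraries were below all R7-III libraries and overlapped those of R7-I. Means were 0.687 ± 0.157, 0.927 ± 0.0777 and 0.417 ± 0.142 TPM (SD, n = 3), and R7-II set against all other libraries gave p = 0.0476 in the exact two-sided permutation test. Without the filter on low values, limma gave log2 fold changes of R7-II of -0.25 relative to R7-I (adjusted p = 0.0452) and of -0.45 relative to R7-III (adjusted p = 0.00316). The ratio of Il18rap to Il18r1 ran from 2.68 to 2.96 in R7-I, from 3.09 to 5.28 in R7-III and from 0.219 to 0.630 in R7-II. The accessory chain was thus above the binding chain in the 6 libraries of R7-I and R7-III and below it in the 3 of R7-II, with a log2 difference of -3.24 computed after adding 0.01 to both (exact two-sided permutation test, p = 0.0238, adjusted p = 0.0397 over 5 ratios).

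For 8 of the 9 chains, all but Il18rap, the 3 R7-II libraries lay wholly above or wholly below the other 6, and each gave the exact two-sided p of 0.0238. Among all genes tested, 41.7% lay wholly above and 17.4% wholly below. Between R7-III and R7-I, the libraries of 4 chains did not overlap, Il6ra, Il27ra, Il18rap and Ifngr2, and R7-III was the higher clone in each. Over all genes tested 29.5% were wholly above and 12.4% wholly below in that comparison. Il12rb1, Il12rb2, Il6st, Il18r1 and Ifngr1 had log2 fold changes between -0.01 and 0.05 there, and the 95% intervals of these values reached from -0.32 to 0.39.

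The order of the chains by level differed between clones as well. In R7-I it ran from Il12rb1 through Il27ra, Il6st, Il12rb2, Ifngr1, Ifngr2 and Il6ra to Il18rap and Il18r1, and no neighbours in it overlapped. R7-III had the same order except that Il27ra came before Il12rb1, and there Il6st (36.4 to 40.8 TPM) and Il12rb2 (23.5 to 36.8 TPM) overlapped. In R7-II, Il27ra and Il6st led, then came Il12rb1, Ifngr1 and Ifngr2 followed, and Il12rb2 (7.46 to 10.8 TPM) overlapped Il6ra (5.97 to 8.43 TPM) in the places after them. Il12rb2 was the fourth most abundant chain in R7-I and R7-III.

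The genes downstream of the receptors were counted from lists of known pathway members, and list counts carry no test. Beside them, 40.6% of all genes tested were higher and 15.5% lower in R7-II than in R7-I. Against R7-III these shares were 35.6% and 18%. After median-of-ratios scaling, 2847 of 11276 genes were higher and 3334 lower against R7-I, and 2814 and 3201 against R7-III. Of the 4 Janus kinases, 3 were higher in R7-II relative to R7-I and 1 higher than in R7-III. Jak1, which serves gp130 and both interferon receptors, averaged 122 ± 1.64 TPM in R7-I, 120 ± 2.85 TPM in R7-III and 189 ± 11.8 TPM in R7-II (SD, n = 3), with log2 fold changes of 0.62 and 0.66 (adjusted p = 7.07e-07 and 4.81e-07, limma). Tyk2, a partner of Jak2 at the IL-12 receptor, was higher in activated R7-II than in R7-I by 0.38 and higher in R7-III than in R7-I by 0.30 (adjusted p = 2.26e-05 and 0.00112). Jak3 was higher than R7-I in both R7-II (0.22) and R7-III (0.21). Jak2 had values of -0.16 and -0.15 that did not pass, but that passed as lower after median-of-ratios scaling, -0.34 and -0.29. Under that scaling Jak3 no longer passed in R7-II or in R7-III.

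Among the 6 STAT factors listed, 3 were higher and 2 lower in R7-II relative to R7-I, and 3 higher and 3 lower than in R7-III. Stat4, the factor of the IL-12 receptor, averaged 124 ± 2.97 TPM in R7-I, 112 ± 3.52 TPM in R7-III and 74.4 ± 0.952 TPM in R7-II (SD, n = 3). R7-II differed by -0.73 from R7-I and by -0.58 from R7-III on the log2 scale (adjusted p = 6.76e-08 and 2.46e-07, limma), the same direction as both IL-12 receptor chains. Stat5a was lower by 0.40 and 0.25, that is log2 fold changes of -0.40 and -0.25. Stat6 was higher by 0.21 and 0.20 and did not pass after median-of-ratios scaling. The other higher factors, named after their values were seen, were Stat2 at 0.93 and 0.72 and Stat5b at 0.39 and 0.35. Both still passed as higher under that scaling. Stat3, the main factor of gp130, was lower against R7-III at -0.16 (adjusted p = 0.00490) and had a value of -0.12 against R7-I that did not pass. After median-of-ratios scaling Stat3 passed as lower in both, at -0.31 and -0.29, and the STAT counts were 2 higher and 3 lower in each comparison.

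Genes known to be induced through each receptor were counted next. The list for IL-12 and Stat4 has 10 genes, of which 8 were tested, and it includes Il12rb2, Il18r1, Il18rap and Ifng. In each R7-II comparison 5 were lower and 1 higher, with a median log2 fold change of -0.84 against R7-I and -0.94 against R7-III. Tbx21, which encodes the effector factor T-bet, was lower by the most, at -2.94 and -3.05, with 45.6 ± 1.45 TPM in R7-I, 49.7 ± 6.66 TPM in R7-III and 5.25 ± 1.65 TPM in R7-II (SD, n = 3). Map3k8, a kinase of the MAP kinase cascade, was at -1.33 and -1.54, and Gadd45b at -0.33 and -0.35. Furin had values of 0.04 and 0.08 that did not pass. Il18r1, tested only through its R7-II values, was the member that was higher, and Il12rb2 was among the lower ones. Both are receptor chains described above, so their part in these counts and medians is not a separate result.

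The list for Stat3 and IL-6 family cytokines had 8 of 10 genes tested, 5 higher and 1 lower in R7-II relative to R7-I, and 4 higher and 2 lower than in R7-III. Its median log2 fold change was 0.62 and 0.47. Socs3, the feedback inhibitor that binds gp130, averaged 3.97 ± 0.482 TPM in R7-I, 3.22 ± 0.896 TPM in R7-III and 24.7 ± 4.98 TPM in R7-II (SD, n = 3), log2 fold changes of 2.35 and 2.61 (adjusted p = 1.18e-06 and 5.64e-07, limma). Bcl3 was higher by 1.32 and 1.34, and the transcriptional repressor Bcl6 by 1.29 and 1.58. Junb was lower, at -0.50 and -0.41, and Batf was lower against R7-III, at -0.52. Pim1 was at -0.14 and 0.01 and did not pass. After median-of-ratios scaling, the counts were 4 higher and 3 lower against R7-I and 4 higher and 2 lower against R7-III, with Pim1 (-0.33) and Batf (-0.54) passing as lower against R7-I.

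The list for interferon-gamma had 17 of 18 genes tested, and with TPM scaling its calls had no common direction. In R7-II, 4 were higher and 5 lower than in R7-I, and 3 higher and 5 lower than in R7-III, with medians of -0.13 and -0.20. Ciita, named after its values were seen, was among the higher genes in both comparisons. It exceeded 1 TPM in R7-II libraries alone, so the filter admitted it only because it was high there. Irf8 had log2 fold changes of -1.48 and -1.54 (adjusted p = 3.08e-06 and 2.29e-06, limma), and Iigp1, an immunity-related GTPase, of -1.53 and -1.55. Igtp, another such GTPase, was higher by 0.70 and 0.44. Cxcl10, a chemokine, was lower against R7-I at -1.09 and did not pass against R7-III at -0.56. Tap1 was higher against R7-I by 0.20 and Psmb8 did not pass, and both serve antigen presentation. After median-of-ratios scaling Tap1 no longer passed, and most calls were lower. The counts were then 1 higher and 7 lower against R7-I and 1 higher and 6 lower against R7-III. The gene still higher against R7-III was Ciita.

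**Figure D4:**
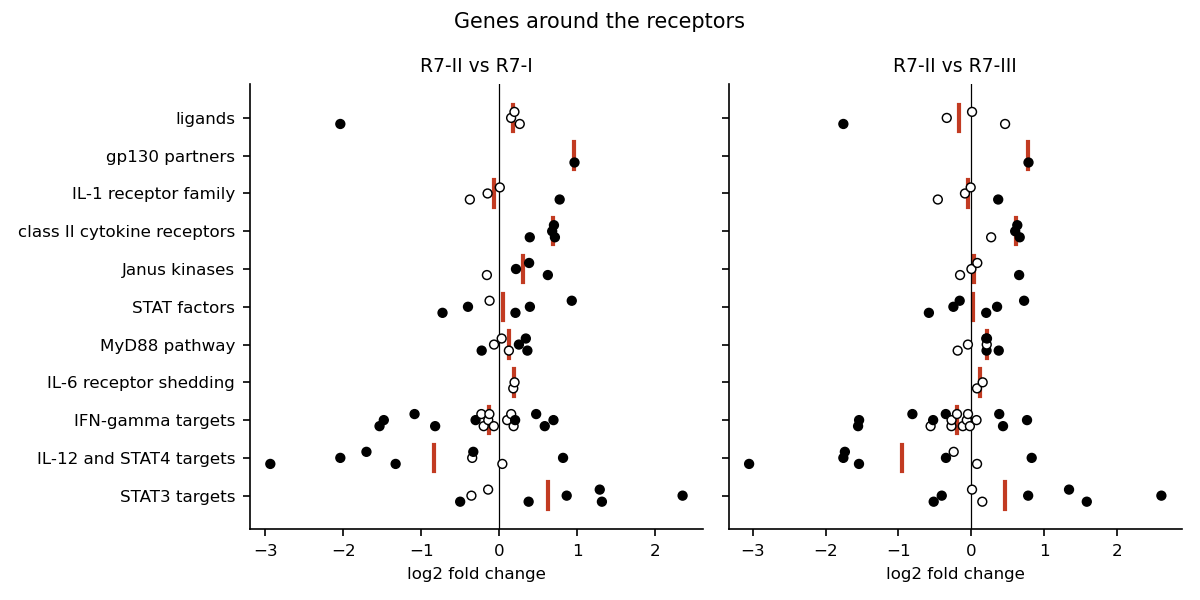
Log2 fold change on the log2(TPM + 1) scale of each tested gene in the lists around the receptors, for R7-II against R7-I and R7-II against R7-III. Filled points passed an adjusted p of 0.01 in limma, open points did not, and the red bar is the median of the list. The IL-12 and STAT4 list, which includes the receptor chains Il12rb2 and Il18r1, has its median at -0.84 and -0.94 and the STAT3 list at 0.62 and 0.47.

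Relatives of the receptors were examined the same way. In the family of the interferon-gamma receptor, the class II cytokine receptors, 4 of 5 genes were tested, 4 were above R7-I in activated R7-II and 3 above R7-III. Ifnar1 of the type I interferon receptor was higher by 0.72 and 0.66, Il10rb by 0.68 and 0.60, and Il10ra by 0.70 and 0.63. Ifnar2 was higher by 0.39 against R7-I and had a value of 0.27 against R7-III that did not pass (adjusted p = 0.0190), and after median-of-ratios scaling it passed in neither. In the family of the IL-18 receptor, 4 of 6 genes were tested and Sigirr, an inhibitory member, was the only one to pass with TPM scaling. Sigirr was higher in R7-II by 0.78 and 0.37 and in R7-III over R7-I by 0.41 (adjusted p = 3.33e-06, 6.37e-04 and 0.00231, limma). Il1r2 was at -0.38 and -0.46, Il1rl2 at -0.15 and -0.01, and Il1rap at 0.01 and -0.09. After median-of-ratios scaling Il1r2 passed as lower against R7-III, at -0.50. Of the 7 tested genes of the Myd88 pathway, 3 were higher and 1 lower relative to R7-I in R7-II, and 4 were higher relative to R7-III. Myd88 itself was higher by 0.25 and 0.22 and Irak1 by 0.34 and 0.21, but after median-of-ratios scaling Myd88 passed in neither comparison and Irak1 only against R7-I, at 0.16. Traf6 was higher against R7-III by 0.21, a call lost after median-of-ratios scaling, under which it passed as lower against R7-I, at -0.15. Tollip passed under neither scaling. Under that scaling the counts of the Myd88 pathway were 1 higher and 2 lower against R7-I and 0 higher and 1 lower against R7-III in limma.

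Transcripts of other cell types moved with these results. Summed over 12 B cell genes, the level was 10.2 to 17.6 TPM in R7-I, 6.28 to 9.70 TPM in R7-III and 40.2 to 86.6 TPM in R7-II. The 7 MHC class II genes summed to 32.95 to 51.5, 24.9 to 29.3 and 116 to 188 TPM, and the 14 myeloid genes to 6.48 to 8.64, 6.86 to 8.82 and 29.6 to 98.7 TPM in the same order. All 10 tested B cell genes, among them Cd79a, Cd79b and Ly6d, and all 7 MHC class II genes, among them Cd74, H2-Aa and H2-Ab1, passed as higher in R7-II in both comparisons. After median-of-ratios scaling 9 B cell and 6 MHC class II genes passed against R7-I. Of the 13 tested myeloid genes, including Lyz2, Cd68 and Mpeg1, 9 were higher than in R7-I and 10 higher than in R7-III. Of these tested genes, 10 myeloid and 4 B cell genes exceeded 1 TPM in R7-II libraries alone, so the filter admitted them only where R7-II was high. No NK cell gene, Klrb1c, Klre1 and Klri2 included, exceeded 0.67 TPM, and 2 of 6 were at 0 throughout. Of 4 CD4 T cell genes 2 were tested. Cd40lg was lower in R7-II than in R7-III (-1.03), and Foxp3, named after its values were seen and above 1 TPM in R7-II alone, was higher there (0.59). Cd4 was at 0.95 to 1.0 TPM in R7-II and at 0.22 to 0.53 TPM in the other 6 libraries, and Zbtb7b stayed below 1 TPM, so neither was tested. The 10 CD8 T cell genes summed to 3020 to 3057 TPM in R7-I, 3362 to 3419 TPM in R7-III and 3873 to 3937 TPM in R7-II. Lck and Lat were higher in R7-II, while Cd5 was lower there, at -0.61 against R7-I and -0.94 against R7-III. The sort for CD3+ CD8+ tetramer-binding cells should remove B and myeloid cells, and the labels state a purity of 90 to 95%. Cells of several of these other types express Il6ra, Il6st, Ifngr1 and Ifngr2, and in bulk RNA more cells of a type and more RNA per cell cannot be told apart. The part of these cells in the receptor differences was not tested.

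**Figure D5:**
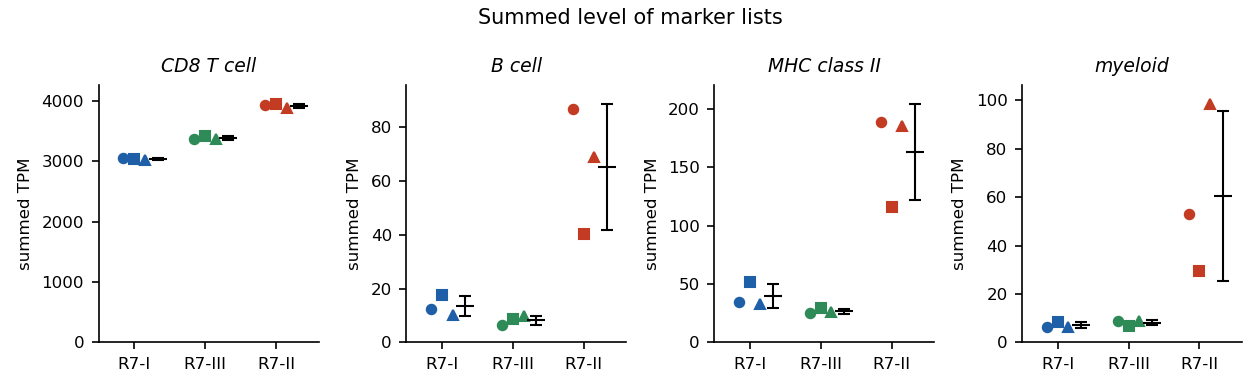
Summed TPM of the marker gene lists for CD8 T cells (10 genes), B cells (12 genes), MHC class II (7 genes) and myeloid cells (14 genes) in each library, on y axes from 0, with replicates 1 to 3 as circle, square and triangle and the mean ± SD of 3 libraries in black. The R7-II libraries are highest in all panels, and R7-II replicate 2 is the lowest of the 3 R7-II libraries for the B cell, MHC class II and myeloid sums.

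R7-II replicate 2 had the lowest of these sums within its clone, 40.2 TPM for B cell, 116 TPM for MHC class II and 29.6 TPM for myeloid genes. It was also the R7-II library closest to the other clones for all 8 tested chains, the 2 lower ones included. The same was true of 61.7% of the 5070 genes that passed in both R7-II comparisons in the same direction. With this library as the only one of R7-II, a fit chosen after seeing the data in which its spread is assumed to be that of the other clones, 5 chains were higher and 2 lower than in R7-I, beside 27.6% and 11.6% of all genes tested in it. Against R7-III 4 were higher and 2 lower, beside 21.9% and 13.6%. Il18r1 was not tested in that fit, as its maximum fell below 1 TPM, and Il6ra did not pass against R7-III (0.39, adjusted p = 0.0334). The log2 fold changes of Il12rb2 were then -1.42 and -1.45 and those of Ifngr2 were 0.99 and 0.81, all of which passed.

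The genes whose profile over the 9 libraries came closest to each chain were found by the root mean square difference of log2(TPM + 1), each centred on its mean. Il12rb1 was closest to Cd44, a surface marker of activated T cells that averaged 174 TPM in R7-I, 196 TPM in R7-III and 77.7 TPM in R7-II (difference 0.0962), and then to Bag2 (0.0997). Il12rb2 was closest to Nek6 (0.150) and then to Irf8 (0.181), so even the nearest profiles lay further from it than was the case for the other chains. Il6ra was nearest to Chd3 (0.0651) and Oas1c (0.0848), Il6st to Sp3 (0.0454) and 5031425E22Rik (0.0466), and Il27ra to Nxpe3 (0.0351) and Aes (0.0385). Ifngr1 was nearest to Cdc42se2 (0.0439) and Arhgap1 (0.0523), Ifngr2 to Adcy7 (0.0477) and Sorl1 (0.0625), and Il18r1 to A130077B15Rik (0.0515) and Gm17821 (0.0520). Likeness of profile over 3 clones is a description and carries no test.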

How the data were processed

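RNA of peptide-activated, tetramer-sorted CD8 T cells was sequenced as unstranded single-end polyA libraries. Per the submitters' processing notes, RSEM 1.2.11 and mm10 were used, and the authors deposited TPM per gene symbol. No source used here names the aligner. The authors ran DESeq2 1.8.1 on counts, which are not used here, so TPM was tested instead. Columns were assigned to samples by their names, and no pair of libraries held identical values.

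Genes with a maximum TPM above 1 were tested as log2(TPM + 1) with limma 3.58.1 in R 4.3.3 (trend, 9 libraries in 1 fit, Benjamini-Hochberg adjustment over all 11330 genes). Exact two-sided permutation tests of single genes and chain ratios used scipy 1.17.1 in Python 3.11.15. The fit was tested on simulated data in which few genes were changed, as many raised as lowered. That setting lacks the one-sided shift seen here with TPM scaling and does not bear on it. Gene positions and promoters are from RefSeq.

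Members and lists were chosen with earlier results of these data known. The lists cover ligands, gp130 and IL-12 family partners, IL-1 receptor family, class II cytokine receptors, Janus kinases, STAT factors, Myd88 pathway, IL-6 receptor shedding, targets of interferon-gamma, IL-12 and Stat3, and markers of CD8 T, B, myeloid, NK and CD4 T cells and MHC class II. A further gene was taken off the lists after its values were seen, for a reason unrelated to them, and is not reported here. Named are all members, per pathway list the 4 of highest mean TPM plus any gene passing with over 2-fold change, per marker list the 3 of highest mean, and the 2 closest profiles per member. Alternatives were other pseudocounts, filters, scalings, moderation, threshold, libraries compared, a replicate block and each library left out. Same-numbered libraries of different clones had correlations of deviations between -0.045 and 0.089, so the numbers were not taken as pairs.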

Additional observations from a re-analysis of the deposited data

How the results depend on the processing

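The numbers of receptor chains past the threshold stayed within 1.5 times the reported ones under every alternative run. Several settings leave the log2 fold change of a chain unchanged by design and bear only on its call. Among them are the looser threshold, the moderation without trend, the replicate block and leaving out a library of the clone not compared. Of 473 refits of single chains, 456 kept direction and call, 2 lost the call and 15 changed sign. Both lost calls were Il6ra between R7-II and R7-III, under quantile normalization and with R7-II replicate 2 as the only R7-II library. All 15 sign changes were between R7-III and R7-I in chains that did not pass there. Median-of-ratios scaling gave -0.0060 for Il6st, -0.023 for Il12rb1 and -0.020 for Il12rb2, and quantile normalization -0.0094 for Il6st and -0.026 for Il12rb2. Leaving out 1 library at a time gave -0.014 to 0.072 for Il12rb1, -0.086 to 0.23 for Il12rb2, -0.057 to 0.024 for Il18r1 and -0.050 to 0.033 for Ifngr1. Il27ra passed between R7-III and R7-I in every refit, with an adjusted p of at most 0.00778 (limma). The cause of these shifts was not tested.

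The log2 ratio of Il6ra to Il6st, which did not set R7-II apart, was -0.049 with 1 added to both TPM and -0.046 to 0.17 with a library left out. The other ratios kept their direction. With the replicate number as a block, Il12rb2 over Il12rb1 was -0.68, Il18rap over Il18r1 -3.24 and Ifngr2 over Ifngr1 0.58, each with an exact p of 0.25, the smallest that 3 numbers allow, which says nothing of their stability. With a library left out they ranged from -0.78 to -0.61, from -3.68 to -2.92 and from 0.51 to 0.65. With an R7-II library left out, the smallest possible p was 0.0714. In limma the replicate block changed no call of a receptor chain, and 3 of 9 libraries correlated best with their own number.

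For R7-III against R7-I, the number of passing genes was 953 in all, 2142 at an adjusted p of 0.05 and 436 to 1120 with a library left out, the lowest without R7-I replicate 1. The log2 fold change of Il18r1 ranged from 0.24 to 1.95 over pseudocounts and the other settings. TPM gives no read number of a gene, which limits what can be said of Il18r1 and Il18rap.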
